A study of Mus musculus with 15 samples.

Results

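RNA of mature adipocytes from the skin of C57BL/6 mice was compared between postnatal day 25 (P25) and postnatal day 21 (P21). The comparison used 6 of the 15 RNA-seq libraries, 3 at each age, and every gene at 1 FPKM or more in at least 3 of the 15, which were 12259 of the 35275 genes in the deposited table. FPKM, the number of fragments scaled to gene length and sequencing depth, does not correct for differences in RNA composition. Levels in different libraries can therefore be compared only with that limit. Fat cells had been freed from dermis with Collagenase IV and DispaseII and collected as the floating fraction, and total RNA was sequenced. The other 9 libraries, from P29, P35 and P49, entered the estimate of the spread and are given as later levels. The labels name the strain and the age and give no treatment or genotype. They do not say whether a library came from 1 animal or from several, so the p-values rest on the spread among libraries, and part of that spread may be technical.

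Dermal adipocytes form a fat layer under the hair follicles that thickens and thins with the hair cycle. Like other white adipocytes they can make fat from glucose: citrate leaves the mitochondria, is cut to acetyl-CoA, and is built into fatty acids with reducing power from NADPH before being joined to glycerol as triglyceride. SREBP transcription factors, held back in the endoplasmic reticulum by INSIG proteins when sterols are plentiful, switch on the enzymes of fatty acid and cholesterol synthesis. LXR receptors sense oxidised sterols and switch on genes that move cholesterol out of cells or lower its uptake.

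Depth was similar, with 24441777 to 29419595 reads counted to genes per library. P25 replicate 2 stood apart from the other P25 libraries. Its highest correlation of log2 values was with P21 replicate 1 (r = 0.971), against 0.925 and 0.928 with P25 replicates 1 and 3. Its summed level of 17 fibroblast and preadipocyte markers was 15905 FPKM, above the other 5 libraries (2472 to 10730 FPKM), and its summed level of 14 mature adipocyte markers was the lowest of the 6 (27189 FPKM against 36411 to 55645 FPKM). The test was therefore also run without this library. Counts without it are given for most lists, and changes of single genes without it for a few genes. The 102 called genes among those named were all still called without it. For the 15 rises and 15 falls with the widest gap this was a condition of the choice. Over all genes 2230 of the 2312 calls also held, so this is no trait of the named genes. P25 replicate 2 is used as labelled. Whether its label is right was not tested. For Insig1, Dbp and Sesn1, given below, its value lay with the other P25 libraries. These genes were picked for a gap between the ages that counts this library, so that position is set by the choice. Over all genes this library lay nearer to the other P25 libraries than to P21 for 4362 of 12259 (35.6%).

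By the test over all genes, 2312 genes differed at an adjusted p under 0.05, which is 18.9% of those tested. Of these, 1027 rose (8.38%) and 1285 fell (10.5%), and 4341 genes had an unadjusted p under 0.05. Without P25 replicate 2 the test called 5634 genes (46.0%), 2255 up (18.4%) and 3379 down (27.6%). Counts of list members below are to be read beside the shares of all genes with the same libraries. Called the same way in both were 1007 rises (8.21%) and 1223 falls (9.98%). A change of 2-fold or more was seen in 134 of the called rises (1.09% of tested genes) and 217 of the falls (1.77%). The median change of all tested genes was -0.07 on the log2 scale, and -0.06 without P25 replicate 2. Quantile normalization moved it by 0.102, and then 1423 genes rose and 861 fell, so the share of rises went from 44.4% to 62.3% of the calls. With median-ratio scaling the counts were 1429 up and 938 down. The number of calls rested on single libraries: it was 813 without P25 replicate 3, 1240 without P21 replicate 3 and 1252 without P21 replicate 1. With the 6 libraries fitted alone limma called 0 genes, while 2530 had an unadjusted p under 0.05. Voom on the recovered reads of all 15 libraries called 2328. With the 6 libraries less P25 replicate 2 the count was 4516. A core of 761 genes, 390 up and 371 down, was called without each of the 15 libraries in turn. The 15 rises and 15 falls with the widest gap between the nearest libraries of the 2 ages were named for that gap, so their lack of overlap is set by the choice. The genes given below with a change, an SE and an adjusted p belong to that core unless a library is named beside them. Values are listed in the order of replicates 1, 2 and 3, and changes are on the log2(FPKM + 1) scale, which understates the change of low genes.

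**Figure D1:**
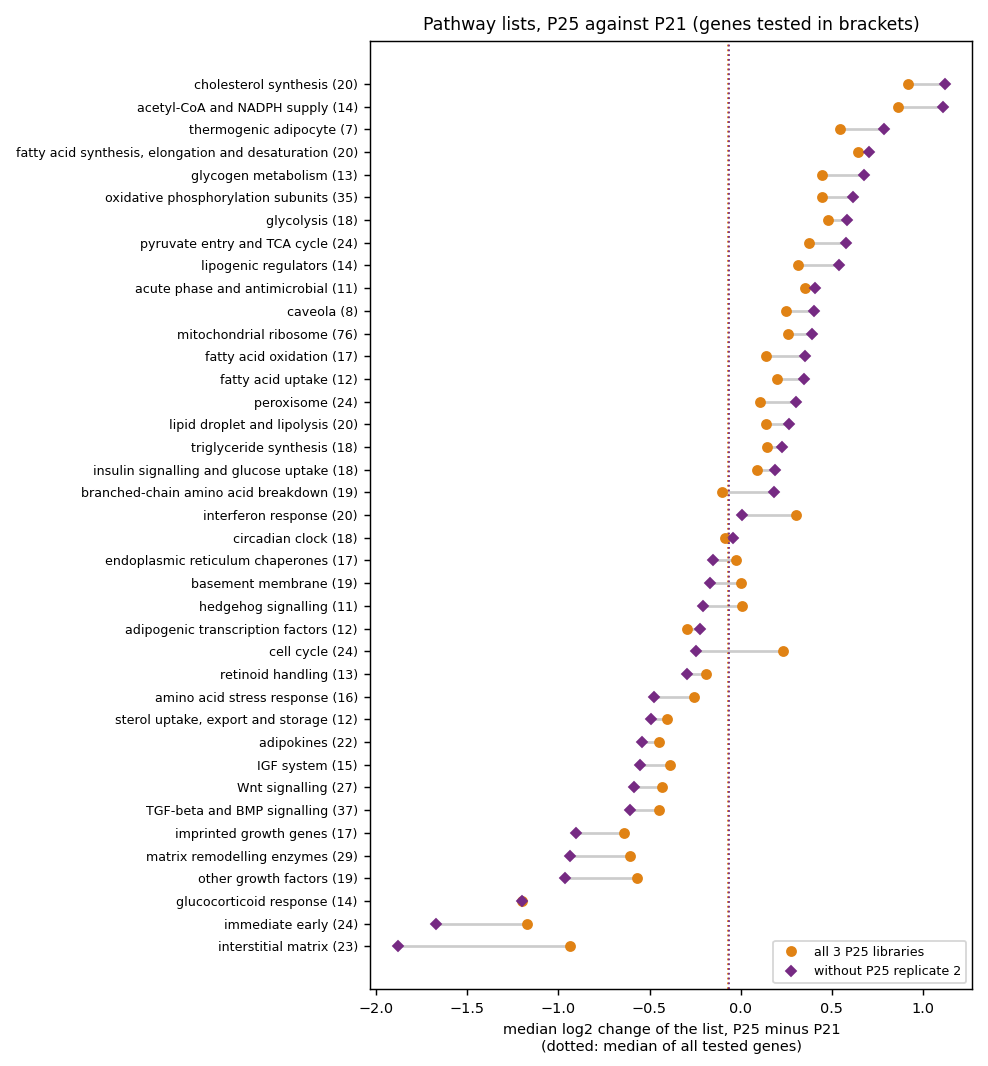
Median log2 change of FPKM + 1 from P21 to P25 over each pathway list, with all 3 P25 libraries (orange circles) and without P25 replicate 2 (purple diamonds), and dotted lines at the medians of all tested genes, -0.07 and -0.06. Cholesterol synthesis (0.92) and acetyl-CoA and NADPH supply (0.86) stand highest with all libraries, and the glucocorticoid response (-1.20) and immediate early lists (-1.17) lowest.

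The regulators of fat synthesis moved in part. Of 14 regulators tested, 4 rose and 0 fell, beside 8.38% and 10.5% of all genes, with a median change of 0.31, and 0.54 without P25 replicate 2, when 8 rose, beside 18.4% of all genes up and 27.6% down. Insig1 (ENSMUSG00000045294, chromosome 5, 28071363 to 28078662, GRCm38), which retains SREBP precursors in the endoplasmic reticulum and is itself an SREBP target, stood at 73.2, 50.3 and 55.5 FPKM at P21 and 232, 241 and 330.4 FPKM at P25. All 3 P25 libraries lay over 3 times above the highest P21 library (log2 change 2.15 ± 0.18 (SE), adjusted p = 0.00017). Srebf1, which encodes SREBP-1, stood at 82.5, 68.2 and 81.9 FPKM at P21 and 199.7, 142 and 218 FPKM at P25, again without overlap (log2 change 1.24 ± 0.18 (SE), adjusted p = 0.00158). Mlx, the partner of the glucose-sensing factor ChREBP, rose from 8.29 ± 1.13 to 13.1 ± 1.76 FPKM (mean ± SD, n = 3; log2 change 0.60 ± 0.12 (SE), adjusted p = 0.0069). Mid1ip1, a partner of acetyl-CoA carboxylase, rose from 9.35 ± 2.88 to 21.7 ± 3.899 FPKM (log2 change 1.16 ± 0.28 (SE), adjusted p = 0.0161). Mid1ip1 lost its call without P21 replicate 2 (adjusted p = 0.0549) or P25 replicate 3 (adjusted p = 0.0624). Srebf2, which encodes the SREBP of cholesterol synthesis, was at 10.7, 9.01 and 10.4 FPKM at P21 and 10.4, 16.3 and 10.9 FPKM at P25 and did not pass (log2 change 0.27, adjusted p = 0.168). Its highest library was P25 replicate 2, and without that library the change was 0.08. Mlxipl, which encodes ChREBP, had a change of 0.36 (adjusted p = 0.245), and 0.68 without P25 replicate 2 (adjusted p = 0.000784). The SREBP escort Scap, at -0.12 (adjusted p = 0.263), did not pass.

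Genes of acetyl-CoA and NADPH supply rose almost throughout. Of 14 genes tested 12 rose and 0 fell, with a median change of 0.86, and 1.11 without P25 replicate 2, when all 14 rose. With 1 other library left out the count of 12 became 8 without P21 replicate 1 or P25 replicate 3. It became 9 without P21 replicate 3 or P25 replicate 1. Slc25a1, which carries citrate out of mitochondria, stood at 173, 149.95 and 95.8 FPKM at P21 and 531, 426 and 766 FPKM at P25 (log2 change 2.03 ± 0.27 (SE), adjusted p = 0.000926). Acly, which splits that citrate, stood at 123, 113 and 47.5 FPKM at P21 and 423, 334 and 677 FPKM at P25 (log2 change 2.38 ± 0.40 (SE), adjusted p = 0.00304). The 2 genes shared an order of libraries: P25 replicate 3 was the highest and P21 replicate 3 the lowest. Acss2, which makes acetyl-CoA from acetate, stood at 23.9, 19.1 and 9.496 FPKM at P21 and 80.3, 59.4 and 143 FPKM at P25 (log2 change 2.36 ± 0.38 (SE), adjusted p = 0.00224). Me1, the malic enzyme that makes NADPH, stood at 94.8, 85.1 and 45.6 FPKM at P21 and 359.6, 308 and 534 FPKM at P25 (log2 change 2.42 ± 0.32 (SE), adjusted p = 0.00102). In all 4 genes the lowest P25 library, replicate 2, was still more than 2 times the highest P21 library. Acly and Me1 were lower in all 9 later libraries than in any P25 library, at 88.8 to 258 FPKM and 119.7 to 246 FPKM. Acss2 at 20.2 to 75.5 FPKM and Slc25a1 at 214 to 408 FPKM had later levels that reached from the P21 range or just above it towards P25. The pentose phosphate enzymes Tkt (1.74, adjusted p = 0.00167) and Pgd (1.45, adjusted p = 0.00114) had the next largest changes of the list.

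**Figure D2:**
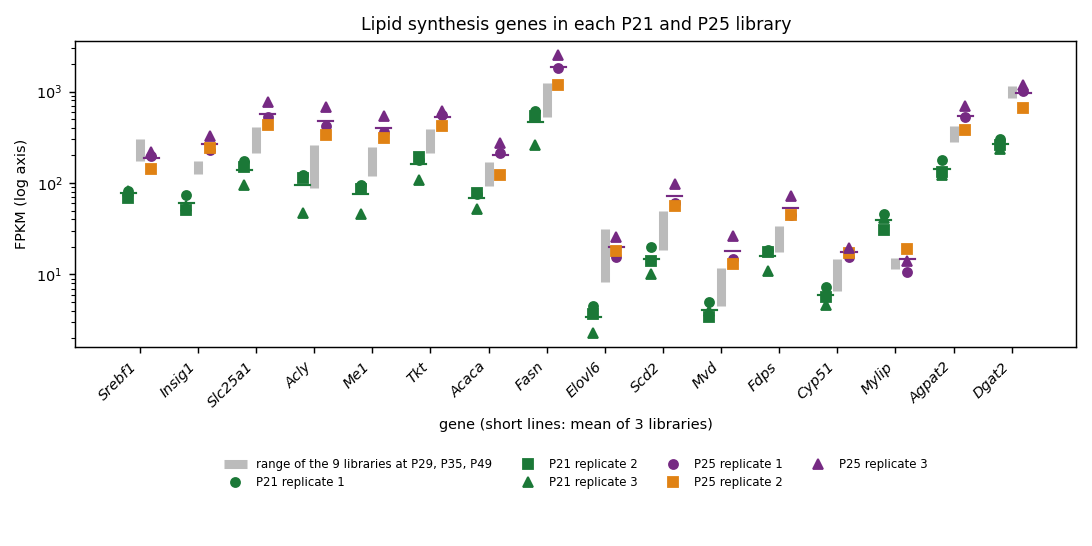
FPKM on a log axis for 16 genes of lipid synthesis in each P21 library (green) and P25 library (purple, with replicate 2 in orange), with short lines for the mean of 3 libraries and grey bars for the range of the 9 later libraries. P25 replicate 2 lies with the other P25 libraries for Insig1 and Mvd and below them, but above P21, for Acaca and Dgat2.

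Genes of fatty acid synthesis, elongation and desaturation followed, with 11 of 20 tested genes up and 0 down and a median change of 0.64, and 0.70 without P25 replicate 2, when 14 rose. The count of 11 became 8 without P25 replicate 3. Acaca, which encodes the acetyl-CoA carboxylase that makes malonyl-CoA, stood at 75.1, 77.7 and 52.3 FPKM at P21 and 212, 122 and 271 FPKM at P25 (log2 change 1.495 ± 0.28 (SE), adjusted p = 0.00513). Fasn, which encodes fatty acid synthase, stood at 612, 534 and 258 FPKM at P21 and 1821, 1193 and 2533 FPKM at P25 (log2 change 2.01 ± 0.36 (SE), adjusted p = 0.0039). Fasn was highest in P25 replicate 3 and lowest in P21 replicate 3, and stood at 525 to 1253 FPKM at P29 to P49. Elovl6, which lengthens palmitate, stood at 4.46, 3.65 and 2.27 FPKM at P21 and 15.7, 18.03 and 25.9 FPKM at P25 (log2 change 2.23 ± 0.35 (SE), adjusted p = 0.0021), and at 8.25 to 31.3 FPKM later. Scd2, a desaturase, stood at 19.98, 14.01 and 10.1 FPKM at P21 and 60.9, 56.002 and 97.3 FPKM at P25 (log2 change 2.21 ± 0.31 (SE), adjusted p = 0.00135). Scd1, the desaturase with the higher level here, stood at 1949, 3316 and 1775 FPKM at P21 and 5586, 4132 and 7018 FPKM at P25 (log2 change 1.27 ± 0.25 (SE), adjusted p = 0.00569). Scd1 stayed high at the later ages (3564 to 8571 FPKM), while Scd2 was at 18.7 to 49.8 FPKM, below every P25 library.

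Genes of cholesterol synthesis rose at nearly every step. Of 20 genes tested 18 rose and 0 fell, all 20 had a positive change, and 17 had no overlap between the ages, against 11.7% of all genes that were higher at P25 without overlap. The median change was 0.92, and 1.12 without P25 replicate 2, when the count was again 18, and without P25 replicate 3 the count was 12. Mvd, the mevalonate decarboxylase, stood at 4.96, 3.41 and 3.98 FPKM at P21 and 14.7, 12.97 and 26.2 FPKM at P25 (log2 change 1.84 ± 0.30 (SE), adjusted p = 0.00248). Fdps, which makes farnesyl diphosphate, stood at 18.5, 17.7 and 10.9 FPKM at P21 and 44.6, 44.4 and 71.9 FPKM at P25 (log2 change 1.71 ± 0.27 (SE), adjusted p = 0.002). Cyp51, which removes a methyl group from lanosterol, stood at 7.29, 5.72 and 4.67 FPKM at P21 and 15.5, 17.2 and 19.5 FPKM at P25 (log2 change 1.43 ± 0.23 (SE), adjusted p = 0.0021). Nsdhl, a later step of the same branch, rose from 10.4 ± 3.66 to 29.6 ± 10.6 FPKM (log2 change 1.43 ± 0.27 (SE), adjusted p = 0.00502). For Cyp51 the 3 P25 libraries lay within 15.5 to 19.5 FPKM, so P25 replicate 2 was no exception. Fdft1, squalene synthase, did not pass (0.31, adjusted p = 0.277), and it stood at 14.1, 13.01 and 19.8 FPKM at P21 and 26.5, 15.8 and 17.3 FPKM at P25. By P29 to P49 Mvd was at 4.46 to 11.7 FPKM, a range that reached down to its P21 level.

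The windows around the transcription starts of these genes, 250 bases before to 50 after, were read from RefSeq (GRCm38.p6) and searched for 12 motifs, and the motifs given here were picked after the matches were seen. The box CCAAT, searched on both strands and so also as ATTGG, which binds the factor NF-Y, was in 14 of 18 windows of 15 matched cholesterol synthesis genes (77.8%), against 37.4% of all 32851 windows. The circadian clock list held it at 76.2% of 21 windows, acetyl-CoA and NADPH supply at 61.1% of 18 and triglyceride synthesis at 26.3% of 19. The sterol regulatory element written TCACNCCAC was in 1 of the 18 cholesterol windows (5.56%), against 1.24% of all. These matches are a description of the letters and no evidence of binding. Printed are a window with both motifs (Hmgcs1, which rose by 0.78, adjusted p = 0.0114, not called without P25 replicate 3), that of Insig1 and that of Mvd, the member with the largest rise. Capitals mark the CCAAT or ATTGG boxes and the element, each strand reads 5′ to 3′ along its gene, and the windows are chr13:119690101-119690400 (plus strand), chr5:28071162-28071461 (plus strand) and chr8:122443373-122443672 (minus strand).
Hmgcs1: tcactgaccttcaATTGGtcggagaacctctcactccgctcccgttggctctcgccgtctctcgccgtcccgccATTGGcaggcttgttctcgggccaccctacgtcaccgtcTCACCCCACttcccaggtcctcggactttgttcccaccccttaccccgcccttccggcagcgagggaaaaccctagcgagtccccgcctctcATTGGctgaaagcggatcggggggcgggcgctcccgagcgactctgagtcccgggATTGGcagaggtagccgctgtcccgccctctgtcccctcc
Insig1: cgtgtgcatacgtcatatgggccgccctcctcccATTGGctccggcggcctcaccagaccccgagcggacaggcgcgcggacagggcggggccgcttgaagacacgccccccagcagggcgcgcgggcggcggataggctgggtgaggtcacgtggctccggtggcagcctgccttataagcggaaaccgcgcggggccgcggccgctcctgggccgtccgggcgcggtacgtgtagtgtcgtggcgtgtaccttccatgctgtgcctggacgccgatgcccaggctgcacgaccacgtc
Mvd: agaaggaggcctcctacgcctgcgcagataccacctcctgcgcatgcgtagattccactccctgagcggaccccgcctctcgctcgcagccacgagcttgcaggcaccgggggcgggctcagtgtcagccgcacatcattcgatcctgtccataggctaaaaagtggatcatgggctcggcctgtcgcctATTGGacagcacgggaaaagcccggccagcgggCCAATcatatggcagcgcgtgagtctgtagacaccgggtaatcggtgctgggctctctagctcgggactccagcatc

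Genes of sterol traffic split by direction. Of 12 tested genes for uptake, export and storage 3 rose and 5 fell, and 3 rose and 7 fell without P25 replicate 2. Mylip, also called Idol, an LXR target that encodes a ubiquitin ligase, stood at 46.1, 30.95 and 41.3 FPKM at P21 and 10.7, 19.2 and 13.98 FPKM at P25 (log2 change -1.39 ± 0.18 (SE), adjusted p = 0.000829). Every P25 library was below every P21 library for Mylip, and the later ages stayed at 11.3 to 14.98 FPKM. Abcg1, a sterol exporter, stood at 11.2, 11.8 and 13.5 FPKM at P21 and 8.55, 7.15 and 5.905 FPKM at P25 (log2 change -0.69 ± 0.14 (SE), adjusted p = 0.00769), and its 3 P25 libraries were the lowest of the 6. Apoe, an abundant lipoprotein component, stood at 4247, 5517 and 6173 FPKM at P21 and 3856, 2243 and 2911 FPKM at P25 (log2 change -0.84 ± 0.19 (SE), adjusted p = 0.0112), also with no overlap. Npc1, which releases cholesterol from lysosomes, fell from 15.5 ± 1.797 to 8.37 ± 2.02 FPKM (log2 change -0.84 ± 0.14 (SE), adjusted p = 0.00308). Its partner Npc2 moved the other way, from 157 ± 16.2 to 218 ± 30.7 FPKM (log2 change 0.46 ± 0.13 (SE), adjusted p = 0.0263). Npc2 lost its call without P21 replicate 1 (adjusted p = 0.0917), P21 replicate 3 (adjusted p = 0.0878), P25 replicate 1 (adjusted p = 0.0547) or P25 replicate 3 (adjusted p = 0.12). Abca1, the other main sterol exporter, stood at 52.8, 57.8 and 62.996 FPKM at P21 and 56.2, 35.5 and 47.98 FPKM at P25 and did not pass (-0.33, adjusted p = 0.132). Nr1h3, which encodes LXR alpha, did not pass (0.10, adjusted p = 0.725).

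Genes of triglyceride assembly rose at some steps. Of 18 tested genes 7 rose and 1 fell, with a median change of 0.14, and 0.23 without P25 replicate 2, when 9 rose. The 7 rises became 5 without P25 replicate 1 or P25 replicate 3, and the 1 fall became 4 without P25 replicate 1. Agpat2, which adds the second fatty acid to the glycerol backbone, stood at 177, 132 and 123 FPKM at P21 and 533, 382 and 697 FPKM at P25 (log2 change 1.87 ± 0.20 (SE), adjusted p = 0.000401). Dgat2, which adds the last one, stood at 306, 262 and 236 FPKM at P21 and 1023, 661 and 1173 FPKM at P25 (log2 change 1.79 ± 0.18 (SE), adjusted p = 0.000298). Gpat3, which starts the chain, rose from 33.7 ± 5.45 to 68.4 ± 17.5 FPKM (log2 change 0.98 ± 0.20 (SE), adjusted p = 0.00667). Gpd1, which makes glycerol phosphate from a glycolytic intermediate, rose from 366 ± 19.1 to 760.01 ± 239 FPKM (log2 change 1.00 ± 0.21 (SE), adjusted p = 0.00734). Dgat2 kept its level later (859 to 1148 FPKM), unlike Fasn. Within a step the isoforms differed in value: Gpat4 had a change of -0.47 (adjusted p = 0.109) and Lpin1, a phosphatidate phosphatase, -0.82 (adjusted p = 0.0765). Aqp7, the glycerol channel, fell from 66.98 ± 6.66 to 47.2 ± 11.4 FPKM (log2 change -0.52 ± 0.15 (SE), adjusted p = 0.0343). Aqp7 lost its call without P21 replicate 2 (adjusted p = 0.0938), P21 replicate 3 (adjusted p = 0.0897) or P25 replicate 3 (adjusted p = 0.0591).

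Lipid uptake, droplet proteins and insulin signalling had calls in both directions. For fatty acid uptake 4 of 12 tested genes rose and 1 fell, and 6 rose and 3 fell without P25 replicate 2. With 1 other library left out the 4 rises became 1 without P21 replicate 1, P21 replicate 3, P25 replicate 1 or P25 replicate 3. The riser with the largest change was Fabp5, a fatty acid carrier, at 33.6, 27.5 and 19.97 FPKM at P21 and 137, 104 and 149 FPKM at P25 (log2 change 2.24 ± 0.26 (SE), adjusted p = 0.000509), and every P25 library was over 3 times the highest P21 library. Angptl4, a secreted inhibitor of lipoprotein lipase that is raised by fasting, stood at 294, 381 and 282 FPKM at P21 and 143, 129 and 115 FPKM at P25 (log2 change -1.29 ± 0.15 (SE), adjusted p = 0.000445). Lpl, lipoprotein lipase itself, stood at 1360.3, 1829.7 and 1368 FPKM at P21 and 3200.1, 1789 and 2837 FPKM at P25 (log2 change 0.75 ± 0.19 (SE), adjusted p = 0.0174), with P25 replicate 2 inside the P21 range. Lpl lost its call without P21 replicate 1 (adjusted p = 0.0666), P21 replicate 3 (adjusted p = 0.0654), P25 replicate 1 (adjusted p = 0.0604) or P25 replicate 3 (adjusted p = 0.0779). Of 20 droplet and lipolysis genes 3 rose and 2 fell, the falls being near the 10.5% of all genes, and 9 rose and 2 fell without P25 replicate 2. The 3 rises became 0 without P25 replicate 3 and 1 without P21 replicate 1, P21 replicate 3 or P25 replicate 1. The 2 falls became 0 without P21 replicate 3 or P25 replicate 3. The droplet coat Plin1 stood at 683, 751 and 802 FPKM at P21 and 1301, 677 and 1269.9 FPKM at P25 and did not pass (0.48, adjusted p = 0.109), but did without P25 replicate 2 (0.79, adjusted p = 0.000166). The lipase Pnpla2 had a change of -0.31 (adjusted p = 0.336). Of 18 genes of insulin signalling and glucose uptake 2 rose and 2 fell, shares near the 8.38% and 10.5% of all genes. Without P25 replicate 2 the counts were 7 and 3. The 2 rises became 1 without P21 replicate 3, P25 replicate 1 or P25 replicate 3, and the 2 falls 1 without P21 replicate 1, P21 replicate 2 or P25 replicate 3 and 5 without P25 replicate 1. Trarg1, which helps return the glucose transporter GLUT4 to the surface, stood at 53.6, 49.3 and 67.3 FPKM at P21 and 134, 87.6 and 132 FPKM at P25 (log2 change 1.03 ± 0.17 (SE), adjusted p = 0.00223) and reached 159 to 225 FPKM later. Pdk4, which shuts pyruvate out of oxidation and is raised by fasting, stood at 77.2, 88.1 and 56.5 FPKM at P21 and 31.2, 32.6 and 20.5 FPKM at P25 (log2 change -1.37 ± 0.25 (SE), adjusted p = 0.00404), with no overlap. Slc2a4, which encodes GLUT4, had a change of 0.61 (adjusted p = 0.0582), and 0.89 without P25 replicate 2 (adjusted p = 0.000724).

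Genes of sugar breakdown rose at most steps. Of 18 glycolytic genes tested 11 rose and 0 fell, with a median change of 0.48, and 0.58 without P25 replicate 2, when 13 rose and 1 fell. The count of 11 became 8 without P21 replicate 1 or P25 replicate 1 and 9 without P21 replicate 3 or P25 replicate 3. Aldoa, aldolase, stood at 636, 627 and 472 FPKM at P21 and 1331, 963 and 1610.5 FPKM at P25 (log2 change 1.15 ± 0.19 (SE), adjusted p = 0.0028). Gapdh, often used as a reference transcript, stood at 456, 474 and 294 FPKM at P21 and 853, 792 and 1043 FPKM at P25 (log2 change 1.16 ± 0.19 (SE), adjusted p = 0.00228) and did not overlap between the ages. Tpi1 rose from 152 ± 23.1 to 321 ± 66.5 FPKM (log2 change 1.06 ± 0.16 (SE), adjusted p = 0.00178). Eno1, enolase, rose from 207 ± 41.1 to 401 ± 72.7 FPKM (log2 change 0.95 ± 0.18 (SE), adjusted p = 0.00517). Of 13 tested genes of glycogen metabolism 5 rose and 0 fell, against 2 without P25 replicate 3 and 10 up and 1 down without P25 replicate 2. Ppp1r3b, which brings a phosphatase to glycogen, stood at 2.55, 1.29 and 1.84 FPKM at P21 and 7.07, 15.9 and 19.6 FPKM at P25 (log2 change 2.31 ± 0.41 (SE), adjusted p = 0.00388). Its relative Ppp1r3d stood at 3.24, 3.49 and 3.17 FPKM at P21 and 6.85, 5.73 and 7.08 FPKM at P25 (log2 change 0.81 ± 0.11 (SE), adjusted p = 0.00126). Ppp1r3b was highest in P25 replicates 2 and 3 and Ppp1r3d in replicates 1 and 3, so the 2 did not share an order.

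Mitochondrial genes rose too, and their counts depended on P25 replicate 2. Of 24 genes of pyruvate entry and the TCA cycle 9 rose and 0 fell, and 22 rose without that library. With 1 other library left out the count of 9 became 3 without P25 replicate 3. Mpc1, a subunit of the carrier that brings pyruvate into mitochondria, stood at 10.5, 8.42 and 9.03 FPKM at P21 and 16.5, 18.1 and 17.4 FPKM at P25 (log2 change 0.84 ± 0.12 (SE), adjusted p = 0.00158). Its partner Mpc2 stood at 49.6, 53.6 and 37.8 FPKM at P21 and 107, 80.1 and 133 FPKM at P25 (log2 change 1.15 ± 0.18 (SE), adjusted p = 0.00171). Pdhb, a pyruvate dehydrogenase subunit, rose from 117 ± 13.9 to 225 ± 50.03 FPKM (log2 change 0.91 ± 0.18 (SE), adjusted p = 0.00598). Of 35 oxidative phosphorylation subunits 17 rose and 0 fell, all 35 had a positive change, and all 35 were called without P25 replicate 2. With 1 other library left out the count of 17 became 3 without P25 replicate 3, 4 without P21 replicate 3 and 7 without P21 replicate 1 or P25 replicate 1. With an index of other cells' RNA (the mean log2 level of 26 endothelial, Schwann cell and lymphocyte markers in a library) as a covariate, 7 of the 35 were called. The index stood at 4.01, 3.28 and 3.54 at P21, at 2.37, 3.73 and 2.21 at P25 and at 2.15 to 2.99 later. Of the P25 and later libraries only P25 replicate 2 thus reached the P21 range. Index fits therefore lean on that library and cannot fully separate age from other cells' RNA. Over all 12259 genes the index fit called 1039 up and 1533 down, and list counts with the index are to be read beside these. Uqcrq, of complex III, stood at 74.4, 77.5 and 56.3 FPKM at P21 and 136, 99.005 and 162 FPKM at P25 (log2 change 0.91 ± 0.17 (SE), adjusted p = 0.00515). Of 76 mitochondrial ribosome genes 23 rose and 0 fell, 56 without P25 replicate 2 and 10 without P25 replicate 3, 11 without P21 replicate 1 or P21 replicate 3 and 12 without P25 replicate 1. With the index 11 rose and 3 fell. Mrpl12 stood at 12.01, 11.7 and 9.81 FPKM at P21 and 21.9, 16.4 and 22.4 FPKM at P25 (log2 change 0.80 ± 0.14 (SE), adjusted p = 0.00376). Esrra, a nuclear receptor that drives genes of mitochondrial energy production, rose from 17.96 ± 2.06 to 30.8 ± 7.28 FPKM (log2 change 0.73 ± 0.15 (SE), adjusted p = 0.0073). The 14 mature adipocyte markers had 3 rises and 1 fall, with a median change of 0.27. Without P25 replicate 2 they had 10 rises and 0 falls, with a median of 0.551, and with the index 0 rises and 4 falls. The oxidative phosphorylation medians were 0.443, and 0.615 without that library. Whether the mitochondrial rises go beyond those of adipocyte markers was not tested.

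How P25 replicate 2 sat between the ages differed by list. Over all genes it lay nearer to the other P25 libraries than to the P21 libraries for 4362 of 12259 (35.6%). For cholesterol synthesis this held for 13 of 20 genes, for fatty acid synthesis for 12 of 20 and for glycolysis for 10 of 18. For oxidative phosphorylation it held for 1 of 35, for the TCA cycle for 3 of 24, for mitochondrial ribosomes for 8 of 76 and for fatty acid oxidation for 0 of 17. Fatty acid oxidation had 1 rise of 17 with all libraries and 12 without P25 replicate 2. Peroxisome genes went from 4 to 16 rises of 24 (0 without P25 replicate 3), and branched-chain amino acid breakdown from 0 to 8 of 19. With the index in the fit, 16 of those 19, 5 of the 17 fatty acid oxidation genes and 5 of the 24 peroxisome genes were called down, against 0, 1 and 2 up, so the direction of the 3 lists turned with the setting. That fit leans on P25 replicate 2, as given above. With the index the droplet and lipolysis list had 2 rises and 6 falls, insulin signalling 1 and 5, fatty acid uptake 2 and 2, triglyceride synthesis 6 and 3, adipokines 2 and 7, and the adipogenic factors 0 and 4. Rises with the index were 8 of 14 for acetyl-CoA and NADPH supply, 14 of 20 for cholesterol synthesis and 8 of 18 for glycolysis, with 0 falls. Fatty acid synthesis had 10 rises and 1 fall of 20. Falls were then 8 of 24 for immediate early genes, 3 of 15 for the IGF system and 5 of 37 for TGF-beta and BMP signalling. The last of these is near the share of all genes with the index, 1533 falls of 12259. Of the 3404 genes called only without P25 replicate 2, 3269 had their value in that library nearer to P21. This follows largely from the choice, because leaving a library out adds calls where it lies towards the other age. The same holds for the calls that lists gained without it.

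Foxo3, Sesn1, Trp53inp1 and Fam134b were among the 15 falls with the widest gap between the nearest libraries of the 2 ages. Foxo3, a transcription factor that insulin signalling keeps out of the nucleus, stood at 19.3, 26.4 and 18.9998 FPKM at P21 and 10.02, 8.15 and 6.78 FPKM at P25 (log2 change -1.27 ± 0.16 (SE), adjusted p = 0.000777). Sesn1, a sestrin that restrains the growth regulator mTORC1, stood at 22.8, 32.4 and 24.9 FPKM at P21 and 10.5, 9.13 and 7.98 FPKM at P25 (log2 change -1.43 ± 0.16 (SE), adjusted p = 0.000445). Trp53inp1, which takes part in autophagy and the p53 response, stood at 45.5, 47.7 and 44.99 FPKM at P21 and 17.96, 8.92 and 7.47 FPKM at P25 (log2 change -2.01 ± 0.26 (SE), adjusted p = 0.000835). Fam134b, an autophagy receptor of the endoplasmic reticulum, stood at 10.2, 15.4 and 9.26 FPKM at P21 and 2.32, 3.11 and 1.27 FPKM at P25 (log2 change -1.98 ± 0.22 (SE), adjusted p = 0.000445). P25 replicate 2 lay between the other P25 libraries for Foxo3, Sesn1 and Trp53inp1, and above them for Fam134b. Others of the 15 were Tcp11l2 (-1.26, adjusted p = 0.000794), the sulfotransferase Sult1a1 (-1.34, adjusted p = 0.000829), the cytochrome Cyp2d22 (-1.62, adjusted p = 0.000445), Fam20a (-1.59, adjusted p = 0.000794) and Ear2 (-1.51, adjusted p = 0.0357), a ribonuclease gene whose paralogs may share its reads. Ear2 lost its call without P21 replicate 1 (adjusted p = 0.0806), P21 replicate 2 (adjusted p = 0.0818), P21 replicate 3 (adjusted p = 0.085), P25 replicate 1 (adjusted p = 0.1) or P25 replicate 3 (adjusted p = 0.115). For Foxo3 the later range was 8.09 to 13.9 FPKM and for Sesn1 6.004 to 9.51 FPKM.

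The glucocorticoid response list fell with and without P25 replicate 2. Of 14 tested genes 12 fell and 0 rose, all 14 had a negative change, and 12 had no overlap between the ages, against 15.6% of all genes that were lower at P25 without overlap. The median change was -1.20, and -1.20 without P25 replicate 2, when 13 fell. With 1 other library left out the count of 12 became 5 without P25 replicate 3 and 7 without P21 replicate 2. Zbtb16, a zinc finger factor induced by glucocorticoids, stood at 59.997, 84.9 and 53.6 FPKM at P21 and 36.1, 21.3 and 22.3 FPKM at P25 (log2 change -1.30 ± 0.23 (SE), adjusted p = 0.0034). Tsc22d3, also called Gilz, stood at 135, 175 and 170.4 FPKM at P21 and 93.3, 74.2 and 52.3 FPKM at P25 (log2 change -1.14 ± 0.20 (SE), adjusted p = 0.00376). Klf9 fell from 74.2 ± 3.08 to 46.4 ± 4.04 FPKM (log2 change -0.67 ± 0.10 (SE), adjusted p = 0.00162). Fkbp5, a co-chaperone of the receptor, stood at 58.7, 108 and 41.2 FPKM at P21 and 35.1, 24.1 and 16.4 FPKM at P25, with P21 replicate 2 far above the rest (log2 change -1.37 ± 0.36 (SE), adjusted p = 0.0215). Fkbp5 lost its call without P21 replicate 1 (adjusted p = 0.0511), P21 replicate 2 (adjusted p = 0.067) or P25 replicate 3 (adjusted p = 0.102). P25 replicate 2 was nearer to the other P25 libraries for 9 of the 14 genes. Pdk4, Angptl4 and Lpin1, described above, are also members of this list.

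**Figure D3:**
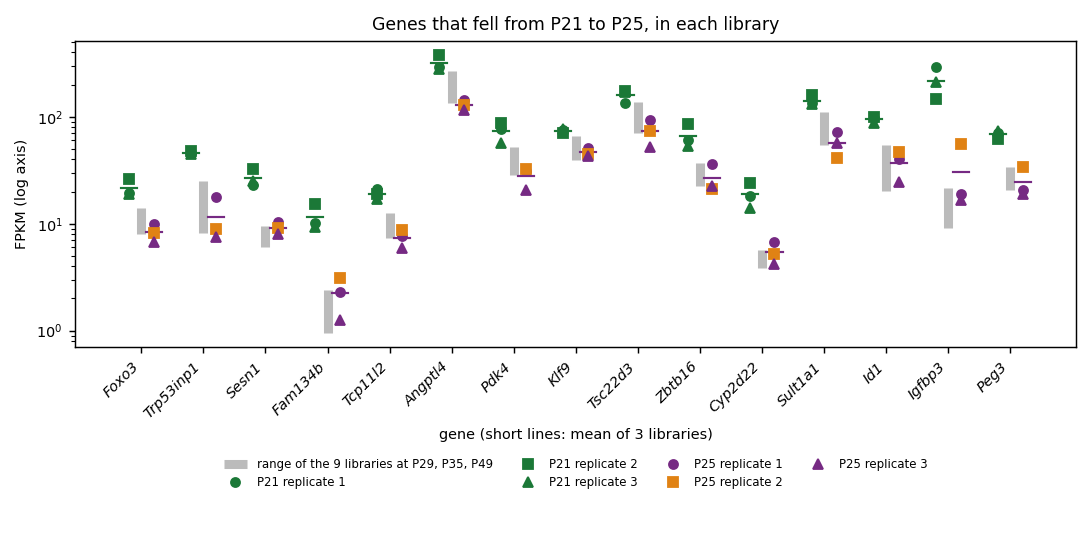
FPKM on a log axis for 15 genes that fell from P21 to P25, in each P21 library (green) and P25 library (purple, with replicate 2 in orange), with short lines for the mean of 3 libraries and grey bars for the range of the 9 later libraries. All P25 libraries lie below all P21 libraries for each gene, as for Sesn1, and on this log axis Igfbp3 has the widest spread at P25 of the 15 genes shown, 16.6 to 56.2 FPKM.

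Immediate early genes, which cells switch on soon after a stimulus, fell too, but with another pattern over libraries. Of 24 tested 16 fell and 0 rose, and all 24 fell without P25 replicate 2. The count of 16 became 0 without P25 replicate 3, 4 without P21 replicate 1 or P25 replicate 1, 5 without P21 replicate 3 and 9 without P21 replicate 2. The median change was -1.17, and -1.67 without P25 replicate 2. Klf4 stood at 212, 159 and 170.2 FPKM at P21 and 39.9, 127 and 34.4 FPKM at P25 (log2 change -1.66 ± 0.38 (SE), adjusted p = 0.013). Junb, an AP-1 subunit, stood at 695, 585 and 608 FPKM at P21 and 189, 509 and 153 FPKM at P25 (log2 change -1.35 ± 0.34 (SE), adjusted p = 0.0187). The call of Klf4 was lost without P25 replicate 3 (adjusted p = 0.0644), and that of Junb without P21 replicate 1 (adjusted p = 0.0632), P21 replicate 3 (adjusted p = 0.0511), P25 replicate 1 (adjusted p = 0.0634) or P25 replicate 3 (adjusted p = 0.0866). P25 replicate 2 was nearer to P21 in all 24 genes, in contrast to the glucocorticoid list, where it was so in 5 of 14.

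Among clock genes, 3 of 18 rose and 2 fell, the falls being near the 10.5% of all genes, and 3 rose and 5 fell without P25 replicate 2. Dbp, an output gene of the clock, stood at 24.6, 25.1 and 24.9 FPKM at P21 and 81.2, 69.1 and 91.04 FPKM at P25 (log2 change 1.65 ± 0.21 (SE), adjusted p = 0.000835). Nr1d1, a repressor within the clock, stood at 31.1, 33.5 and 31.4 FPKM at P21 and 45.6, 60.3 and 61.5 FPKM at P25 (log2 change 0.77 ± 0.16 (SE), adjusted p = 0.00723). Clock, a core activator, stood at 9.02, 8.78 and 9.17 FPKM at P21 and 6.35, 6.05 and 6.42 FPKM at P25 (log2 change -0.46 ± 0.10 (SE), adjusted p = 0.0082). These 3 genes had P21 libraries that nearly coincided and P25 libraries apart from them, P25 replicate 2 included. Arntl, the partner of Clock, had a change of -0.73 (adjusted p = 0.0543) and Per2 -0.35 (adjusted p = 0.201). The labels do not give the time of day of harvest.

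Genes of secreted adipocyte products changed in both directions. Of 22 adipokine genes 4 rose and 6 fell. With 1 library left out the rises became 2 without P21 replicate 1, P21 replicate 3, P25 replicate 1 or P25 replicate 3 and the falls 2 without P25 replicate 3, and 6 rose and 10 fell without P25 replicate 2. Adipoq, which encodes adiponectin, stood at 1724, 2349 and 2047 FPKM at P21 and 2658, 1406 and 2576 FPKM at P25 and did not pass (0.07, adjusted p = 0.821). Lep, leptin, stood at 144, 267 and 199 FPKM at P21 and 255, 150.1 and 255 FPKM at P25 and did not pass (0.12, adjusted p = 0.752). Nrg4, a growth factor ligand of the ErbB family, stood at 15.2, 12.9 and 16.01 FPKM at P21 and 48.8, 25.6 and 46.5 FPKM at P25 (log2 change 1.35 ± 0.26 (SE), adjusted p = 0.00535). Apln, a peptide that insulin raises in adipocytes, stood at 3.22, 0.977 and 1.65 FPKM at P21 and 9.45, 6.68 and 5.72 FPKM at P25 (log2 change 1.54 ± 0.29 (SE), adjusted p = 0.00541). Adm, adrenomedullin, fell from 85.1 ± 19.4 to 32.8 ± 20.1 FPKM (log2 change -1.48 ± 0.32 (SE), adjusted p = 0.0102). Adm lost its call without P25 replicate 3 (adjusted p = 0.0537). Of 11 acute phase and antimicrobial genes 4 rose and 0 fell, and 5 rose and 0 fell without P25 replicate 2. Camp, which encodes the antimicrobial peptide cathelicidin, stood at 1.98, 2.46 and 1.67 FPKM at P21 and 14.1, 6.94 and 9.803 FPKM at P25 (log2 change 1.85 ± 0.27 (SE), adjusted p = 0.00142). Orm1, an acute phase protein gene whose reads may be shared with close paralogs, so that its level is uncertain, stood at 37.9, 45.3 and 10.3 FPKM at P21 and 169, 123 and 234 FPKM at P25 (log2 change 2.64 ± 0.41 (SE), adjusted p = 0.00185), with P21 replicate 3 the lowest. Both were above all of their P21 values in the 9 later libraries, Camp at 4.33 to 17.1 FPKM and Orm1 at 185 to 311 FPKM.

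In the IGF system and among imprinted growth genes there were more falls than rises. Of 15 genes of the IGF system 6 fell and 1 rose, against 10 falls without P25 replicate 2, and with 1 other library left out the count of 6 became 2 without P21 replicate 1, P25 replicate 1 or P25 replicate 3 and 3 without P21 replicate 3. Igfbp3, a carrier of insulin-like growth factors, stood at 291, 146 and 209 FPKM at P21 and 18.8, 56.2 and 16.6 FPKM at P25 (log2 change -2.94 ± 0.40 (SE), adjusted p = 0.00104). Igf2 stood at 17.1, 8.73 and 13.1 FPKM at P21 and 1.402, 5.57 and 1.31 FPKM at P25 (log2 change -2.03 ± 0.36 (SE), adjusted p = 0.0038). The imprinted RNA H19, which is expressed from the same locus, stood at 61.2, 29.02 and 46.8 FPKM at P21 and 3.54, 18.2 and 4.06 FPKM at P25 (log2 change -2.55 ± 0.49 (SE), adjusted p = 0.00556). Of 17 imprinted growth genes 7 fell and 1 rose, with a median change of -0.64, and -0.90 without P25 replicate 2, when 13 fell. Peg3 stood at 70.5, 61.5 and 72.8 FPKM at P21 and 20.8, 33.8 and 18.9 FPKM at P25 (log2 change -1.48 ± 0.20 (SE), adjusted p = 0.00101). Its neighbour Zim1 stood at 15.9, 12.5 and 17.5 FPKM at P21 and 2.67, 7.98 and 2.77 FPKM at P25 (log2 change -1.70 ± 0.29 (SE), adjusted p = 0.00334). In these 5 genes P25 replicate 2 was the highest P25 library and still below every P21 library. Igf1 went the other way, from 51.4 ± 7.78 to 82.2 ± 20.1 FPKM (log2 change 0.64 ± 0.17 (SE), adjusted p = 0.0205). Igf1 lost its call without P21 replicate 1 (adjusted p = 0.0764), P21 replicate 2 (adjusted p = 0.0583), P25 replicate 1 (adjusted p = 0.0663) or P25 replicate 3 (adjusted p = 0.0982). The later levels of Igf2 (0.355 to 1.42 FPKM) and Igfbp3 (9.101 to 21.7 FPKM) reached below the P25 range.

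Of 37 genes of TGF-beta and BMP signalling 9 fell and 1 rose, and 24 fell and 3 rose without P25 replicate 2. With quantile normalization 7 fell and 4 rose. The count of 9 became 1 without P25 replicate 3, 3 without P21 replicate 1 or P25 replicate 1 and 5 without P21 replicate 3. Id1, a target of BMP signals that blocks differentiation factors, stood at 97.3, 98.98 and 87.4 FPKM at P21 and 39.9, 46.4 and 24.7 FPKM at P25 (log2 change -1.37 ± 0.29 (SE), adjusted p = 0.00789). Of 27 Wnt genes 6 fell and 0 rose, becoming 2 without P21 replicate 1 or P25 replicate 3 and 3 without P25 replicate 1, and 14 without P25 replicate 2. Lrp6, a Wnt co-receptor, stood at 27.6, 28.9 and 27.96 FPKM at P21 and 20.1, 16.8 and 16.9 FPKM at P25 (log2 change -0.63 ± 0.10 (SE), adjusted p = 0.0021). Among other growth factors Figf, which encodes VEGF-D, rose from 6.98 ± 0.744 to 12.7 ± 1.404 FPKM (log2 change 0.78 ± 0.08 (SE), adjusted p = 0.000401). Vegfa, the main blood vessel growth factor, fell from 180.1 ± 54.6 to 104 ± 18.2 FPKM (log2 change -0.76 ± 0.18 (SE), adjusted p = 0.0134). Mdk, midkine, stood at 16.3, 7.35 and 12.8 FPKM at P21 and 0.859, 5.76 and 1.32 FPKM at P25 (log2 change -2.03 ± 0.42 (SE), adjusted p = 0.00747). In retinoid handling Cyp26b1, which degrades retinoic acid, stood at 20.01, 6.24 and 5.83 FPKM at P21 and 0.528, 2.43 and 0.456 FPKM at P25 (log2 change -2.36 ± 0.40 (SE), adjusted p = 0.00308). Aldh1a7 stood at 17.2, 20.8 and 8.58 FPKM at P21 and 51.1, 38.1 and 68.6 FPKM at P25 (log2 change 1.74 ± 0.29 (SE), adjusted p = 0.00287).

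Of the adipogenic transcription factors 2 of 12 rose and 3 fell, and 3 rose and 5 fell without P25 replicate 2. With 1 other library left out the 2 rises became 0 without P21 replicate 1, P21 replicate 2, P25 replicate 1 or P25 replicate 3, and the 3 falls 1 without P21 replicate 1, P21 replicate 3 or P25 replicate 3. Cebpd, an early factor of fat cell differentiation, stood at 237, 261 and 313 FPKM at P21 and 121, 189 and 87.03 FPKM at P25 (log2 change -1.09 ± 0.22 (SE), adjusted p = 0.00607). Pparg, the central factor of fat cells, stood at 92.6, 81.9 and 99.8 FPKM at P21 and 159, 102 and 166 FPKM at P25, and Cebpa, its partner, at 330.2, 306 and 361 FPKM at P21 and 625, 363 and 622 FPKM at P25. In both genes P25 replicate 2 lay just above the P21 libraries and far below the other P25 libraries. Pparg rose by this test (log2 change 0.61 ± 0.16 (SE), adjusted p = 0.0218). Pparg lost its call without P21 replicate 1 (adjusted p = 0.0575), P21 replicate 2 (adjusted p = 0.067), P25 replicate 1 (adjusted p = 0.0746) or P25 replicate 3 (adjusted p = 0.104). Cebpa rose too (log2 change 0.65 ± 0.17 (SE), adjusted p = 0.0233). Cebpa lost its call without P21 replicate 1 (adjusted p = 0.0658), P21 replicate 2 (adjusted p = 0.0658), P25 replicate 1 (adjusted p = 0.0823) or P25 replicate 3 (adjusted p = 0.109).

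Matrix genes were listed as those of the basement membrane, which surrounds each fat cell, and those of the interstitial matrix, made mainly by fibroblasts. The split is not strict, since the basement membrane list also holds the fibrillar collagen gene Col5a3, which is among its rises. Of 19 basement membrane genes 4 rose and 1, Lamb2, fell, beside 8.38% and 10.5% of all genes, with a median change of 0.00. Without P25 replicate 2 there were 4 rises and 5 falls, with a median of -0.17. These counts are near the 18.4% of all genes up and 27.6% down without that library. Col15a1, a collagen of basement membrane zones, stood at 112, 138 and 80.5 FPKM at P21 and 227, 237 and 236 FPKM at P25 (log2 change 1.11 ± 0.15 (SE), adjusted p = 0.00101). Nid2, a nidogen that links laminin and collagen networks, stood at 40.96, 57.4 and 37.3 FPKM at P21 and 105, 91.6 and 129 FPKM at P25 (log2 change 1.25 ± 0.17 (SE), adjusted p = 0.00101). Col5a3, a fibrillar collagen chain, stood at 107, 138 and 76.4 FPKM at P21 and 229, 209.7 and 269.9 FPKM at P25 (log2 change 1.17 ± 0.19 (SE), adjusted p = 0.00204). P25 replicate 2 lay with the other P25 libraries in all 3 genes. Of 23 interstitial matrix genes 3 fell and 0 rose with a median change of -0.94, and -1.88 without P25 replicate 2, when all 23 fell. The count of 3 became 1 without P21 replicate 1 or P25 replicate 3. Col1a1 stood at 2998, 1899 and 2115 FPKM at P21 and 549, 5160.1 and 771 FPKM at P25 and did not pass (-0.82, adjusted p = 0.417), with P25 replicate 2 the highest of the 6. Thbs2, thrombospondin 2, stood at 125, 158 and 132 FPKM at P21 and 30.8, 47.3 and 19.5 FPKM at P25 (log2 change -2.13 ± 0.26 (SE), adjusted p = 0.00064) and so fell with that library included. Among remodelling enzymes Adamts5, which cuts proteoglycans, stood at 15.97, 14.1 and 12.1 FPKM at P21 and 30.7, 25.6 and 29.02 FPKM at P25 (log2 change 0.97 ± 0.15 (SE), adjusted p = 0.00167). Mmp11, a matrix metalloproteinase, stood at 21.1, 5.87 and 11.2 FPKM at P21 and 0.716, 2.19 and 0.644 FPKM at P25 (log2 change -2.56 ± 0.37 (SE), adjusted p = 0.00141). The summed level of 17 fibroblast and preadipocyte markers, several of them matrix genes of this list, was 10730.00, 6795 and 8008 FPKM at P21 and 2472, 15905 and 3074 FPKM at P25. Its part in the falls of matrix and growth factor genes was not tested, and in whole libraries fewer cells of a type and less RNA per cell cannot be told apart.

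**Figure D4:**
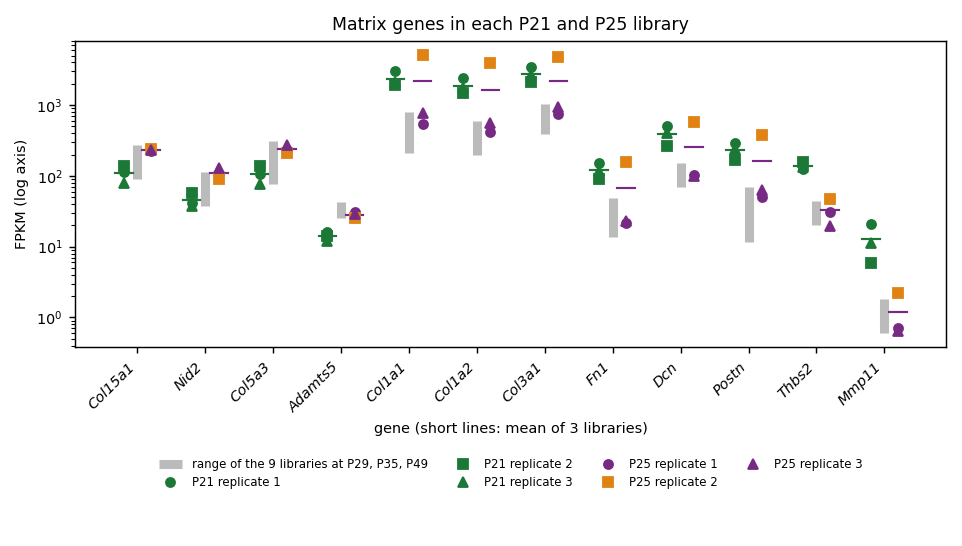
FPKM on a log axis for 12 matrix genes in each P21 library (green) and P25 library (purple, with replicate 2 in orange), with short lines for the mean of 3 libraries and grey bars for the range of the 9 later libraries. Col15a1, Nid2, Col5a3 and Adamts5 are higher in all P25 libraries, while Col1a1 in P25 replicate 2 (5160.05 FPKM) lies above every P21 library.

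Markers of other cells moved with the ages and with P25 replicate 2. The 15 endothelial markers summed to 402, 202 and 258 FPKM at P21 and 73.5, 280.5 and 60.3 FPKM at P25, the 15 macrophage markers to 1408, 1286 and 2328 and 707, 2073 and 546 FPKM, and none of either list was at 0 in any of the 6 libraries. With all libraries 1 of 15 tested endothelial, 1 of 14 macrophage and 0 of 17 fibroblast genes fell, and without P25 replicate 2 these counts were 15, 13 and 14. Pecam1, an endothelial adhesion molecule, stood at 67.5, 31.4 and 42.8 FPKM at P21 and 10.7, 40.9 and 8.43 FPKM at P25 (-1.47, adjusted p = 0.0565), and Ptprc, the CD45 of blood cells, at 5.75, 5.78 and 10.1 FPKM at P21 and 3.23, 8.51 and 2.52 FPKM at P25 (-0.61, adjusted p = 0.263). The 8 mast cell markers summed to 316, 323 and 533 FPKM at P21 and 61.6, 387 and 99.3 FPKM at P25. The 15 skeletal muscle markers summed to 389, 89.9 and 49.5 FPKM and 25.6, 80.1 and 25.1 FPKM, with Myh7 and Tnnc2 at 0 in some library. The 13 keratinocyte markers were low, 28.02, 13.8 and 21.1 FPKM at P21 and 12.98, 73.1 and 26.9 FPKM at P25, with 0 of 9 tested called, and Krt14 stood at 3.403, 1.32 and 1.498 FPKM at P21 and 0.513, 2.802 and 1.398 FPKM at P25 (-0.30, adjusted p = 0.488). The 15 hair shaft and inner root sheath markers summed to 0.964, 0.622 and 0.401 FPKM at P21 and 3.34, 138 and 33.4 FPKM at P25, so the 3 P25 libraries were all above P21 and far from each other. Of this list Krt34 was at 0 in all 6 libraries, and 3 of 6 tested genes rose, a count that became 0 without P21 replicate 1, P21 replicate 3 or P25 replicate 3, 1 without P21 replicate 2 and 6 without P25 replicate 1. The part of these cells' RNA in the other falls and rises was not tested. Some listed markers did not follow their group: Cspg4, listed with pericytes, rose from 9.96 ± 2.23 to 33.2 ± 6.47 FPKM (log2 change 1.64 ± 0.17 (SE), adjusted p = 0.000298). Pmp22, listed with Schwann cells, rose from 144 ± 15.1 to 264 ± 10.6 FPKM (log2 change 0.87 ± 0.12 (SE), adjusted p = 0.00101).

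**Figure D5:**
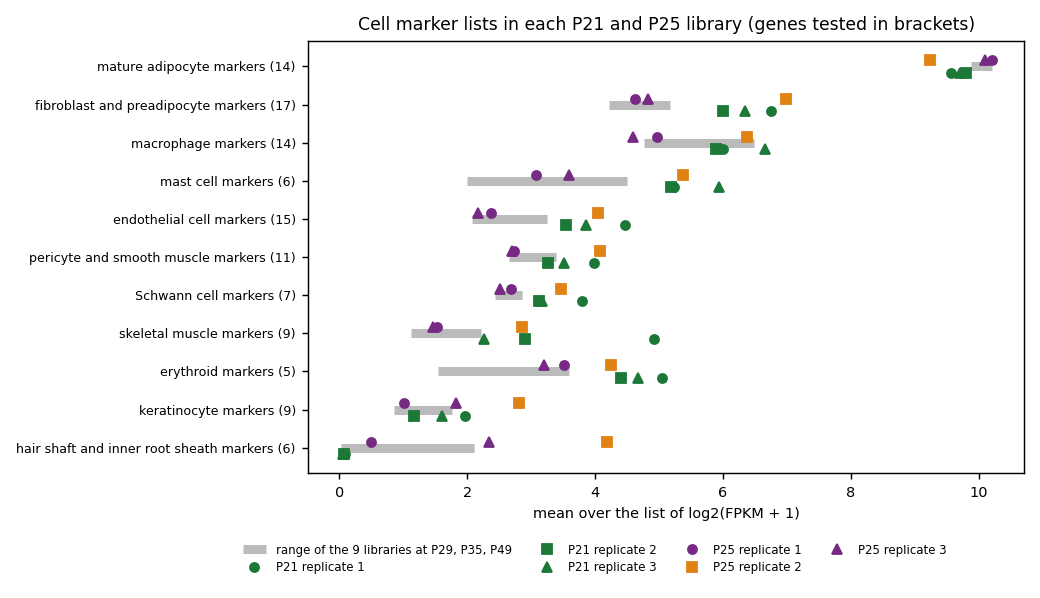
Mean of log2(FPKM + 1) over 11 cell marker lists in each P21 library (green) and P25 library (purple, with replicate 2 in orange), with grey bars for the range of the 9 later libraries. P25 replicate 2 lies within the P21 range for the endothelial, macrophage and mast cell lists. For the fibroblast list it lies above every P21 library (6.98 against 6.75, 6.0 and 6.35). The hair shaft list is higher in all 3 P25 libraries (summed 3.34 to 138 FPKM) than at P21.

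The remaining lists had few calls with all libraries, and more under some other settings. Without P25 replicate 2, 18.4% of all genes rose and 27.6% fell. The cell cycle, chaperone and interferon counts without that library were near or under these shares. With the index 1039 of all 12259 genes rose and 1533 fell. Of 24 cell cycle genes 1 rose, Ccne1, from 2.25 ± 0.649 to 4.91 ± 1.35 FPKM (log2 change 0.86 ± 0.18 (SE), adjusted p = 0.0081). Without P25 replicate 2 the cell cycle list had 2 rises and 5 falls, and with the index of other cells as a covariate 17 rises and 0 falls. Of 17 chaperones of the endoplasmic reticulum 0 were called by limma with all libraries, 1 rose and 5 fell without P25 replicate 2, and 3 rose with the index. Of 20 interferon response genes 1 rose, 2 without P25 replicate 2 and 10 with the index. Of 16 genes of the amino acid stress response 1 rose and 3 fell, the falls becoming 1 without P25 replicate 3 and 9 without P25 replicate 2. Chac1, which breaks down glutathione, stood at 21.7, 28.6 and 25.4 FPKM at P21 and 15.4, 10.2 and 7.798 FPKM at P25 (log2 change -1.15 ± 0.23 (SE), adjusted p = 0.0065). Psph, the last enzyme of serine synthesis, stood at 3.72, 4.16 and 3.01 FPKM at P21 and 8.27, 7.07 and 11.8 FPKM at P25 (log2 change 1.10 ± 0.16 (SE), adjusted p = 0.00159). Of 8 caveola genes 1 rose and 1 fell, and 5 rose and 1 fell without P25 replicate 2. The riser was Cavin3, from 118 ± 6.51 to 198 ± 19.1 FPKM (log2 change 0.74 ± 0.10 (SE), adjusted p = 0.00119). Among the 15 rises with the widest gap, genes outside these lists were Parm1, Adap1, Tlcd2 and Odf3l1. Parm1 stood at 3.72, 3.798 and 2.26 FPKM at P21 and 16.96, 12.03 and 21.9 FPKM at P25 (log2 change 2.06 ± 0.25 (SE), adjusted p = 0.00062). Adap1 stood at 14.7, 12.9 and 13.2 FPKM at P21 and 45.8, 36.4 and 58.8 FPKM at P25 (log2 change 1.69 ± 0.16 (SE), adjusted p = 0.000298). Tlcd2 stood at 10.4, 9.32 and 7.05 FPKM at P21 and 33.8, 28.5 and 52.6 FPKM at P25 (log2 change 1.95 ± 0.23 (SE), adjusted p = 0.000602). Odf3l1 stood at 2.52, 3.06 and 1.36 FPKM at P21 and 13.5, 11.1 and 16.5 FPKM at P25 (log2 change 2.17 ± 0.21 (SE), adjusted p = 0.000298). Parm1 was at 4.05 to 8.86 FPKM later.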

How the data were processed

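RNA-seq of 15 libraries of purified dermal adipocytes came as 1 deposited table of FPKM. The submitters' processing notes name CASAVA, FastQC, STAR 2.5, HTSeq 0.6.1 and the build mm10/GRCm38, with no order. The annotation release is not given in the sources used here. Multiplied by gene length, 100% of the deposited FPKM values were whole multiples of 1 step (within 0.05 read), which gave totals of 23214103 to 32219574 reads. At that depth 3 reads on a gene of 1 kb correspond to 0.0931 to 0.129 FPKM.

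Values were taken as log2(FPKM + 1). The model (limma 3.58.1, statmod 1.5.0, R 4.3.3) had a mean for each age, used every library for the spread, and moderated variances with a robust trend. A gene was tested if 3 or more libraries reached 1 FPKM (12259 genes), with Benjamini-Hochberg adjustment over all of them and a threshold of 0.05. The code was tested on simulated data. Of 1006 symbols in 56 lists 1003 were matched (12 by gene ID) and 881 tested; Asip, Trdc and Krt85 were not matched. The members and lists were chosen with earlier results of these data known. The index of other cells averages 26 markers of blood vessel lining, Schwann cells and lymphocytes. Among them are Pmp22, which rose, and Egr2, which is also on the immediate early list.

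Named genes are the 15 rises and 15 falls with the widest gap between the nearest libraries of the 2 ages, among genes called with and without P25 replicate 2, at 5 FPKM or more and with an established symbol, then up to 4 called changes per direction and list, and Adipoq, Plin1, Pecam1, Col1a1, Ptprc and Krt14. Hmgcs1, Klf9, Pgd, Scd1, Tkt and Tsc22d3, and members that were not called, were chosen after their values were seen. Alternatives were quantile normalization, median-ratio scaling, a pseudocount of 0.1, no filter, a replicate block, the 6 libraries alone, library weights, voom on the recovered reads, the index as a covariate, no trend, and each library left out. Combinations with P25 replicate 2 left out were added after the data were seen. Figures were drawn with Python 3.11.15, pandas 2.3.3, numpy 2.4.6 and matplotlib 3.10.9. Some genes are not reported here.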

Additional observations from a re-analysis of the deposited data

How the results depend on the processing

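With each of the 15 libraries left out in turn, 813 to 5634 genes were called, 409 to 2255 up and 404 to 3379 down. The other planned settings gave 1806 (no filter) to 2572 calls (index of other cells as a covariate), except 2. Library weights gave 5924 (2305 up, 3619 down), with a weight of 0.0994 for P25 replicate 2 against 0.635 to 2.31 for the other libraries. The P21 and P25 libraries fitted alone gave 0 calls, 0 up and 0 down. Without P25 replicate 2, settings added after the data were seen gave 5906 with weights (2316 up, 3590 down), 5556 with voom (2232 up, 3324 down), 6027 with quantile normalization (3574 up, 2453 down), 5811 with median-ratio scaling (2819 up, 2992 down) and 4516 for P21 and P25 alone (1703 up, 2813 down). The cause was not tested.

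Same-numbered P21 and P25 libraries deviated from their age means with correlations of -0.516, -0.600 and -0.152, and differently numbered ones with -0.423 to 0.552. With 3 libraries per age these values cannot show whether the numbers mark pairs. The labels do not say what the numbers mark, so they are not taken as pairs. With the replicate block 2289 genes were called (1010 up, 1279 down), and each called gene named here was still called.

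Among these genes Aqp7 was not called with median-ratio scaling (adjusted p = 0.0571) or without a filter (0.0625), and Ear2 not without a filter (0.0628). The covariate ended the calls of Cebpa (0.0925), Ear2 (0.176), Igf1 (0.0798), Lpl (0.0565), Npc2 (0.07) and Pparg (0.0898). It also turned the sign of genes that were not called: Adipoq (-0.296 on the log2 scale), Lep (-0.25), Mlxipl (-0.0525), Nr1h3 (-0.285), Col1a1 (0.725), Krt14 (0.147) and Ptprc (0.0771). Library weights turned Pnpla2 (0.00109). With 1 library left out the sign turned within -0.0885 to 0.371 for Adipoq, -0.11 to 0.37 for Lep, -0.0495 to 0.403 for Nr1h3, -0.628 to 0.0365 for Krt14 and -0.487 to 0.012 for Pnpla2. The cause was not tested.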
